A study of Mus musculus with 31 samples.

Results

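The 9 genes described here encode the cannabinoid receptor CB1, a protein that binds it, and the enzymes that make and break down its lipid ligands. They are Cnr1, Cnrip1, Dagla, Daglb, Mgll, Abhd6, Abhd12, Napepld and Faah. They were chosen by symbol as receptor, synthesis and breakdown genes that matter for fear, not by measured values, and they are 9 of the 48709 genes counted in the basolateral amygdala (BLA) of 31 mice. All 9 passed the filter of at least 10 reads in at least 7 mice, which 17428 genes passed.

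The study asked what extra human CYFIP1, a gene in a human chromosomal region whose duplication is tied to autism, does to mice, and it sequenced the BLA for its role in fear. CYFIP1 OE mice carry a bacterial artificial chromosome (BAC) with human CYFIP1 on the C57BL/6N strain, in lines labelled 1 and 3 that each descend from 1 founder, and WT mice (labelled Control) lack it. The line labelled 1 gave 8 WT mice (4 males) and 7 CYFIP1 OE mice (3 males), and the line labelled 3 gave 8 of each genotype (4 males in each). All mice were 58 to 64 days old except 4 CYFIP1 OE mice of line 1, which were 77 days old. In line 1, 7 of the 8 WT mice share a name prefix and an age of 61 days. Most CYFIP1 OE mice of that line belong to name groups (mice with the same prefix) that hold no WT mouse. Age, name group and genotype can thus scarcely be told apart in line 1, and each genotype difference between the lines carries that limit. Each sample is RNA from the pooled left and right punches of 1 mouse.

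Endocannabinoids are lipid messengers that neurons make on demand from membrane lipids and that travel backward across the synapse. They bind CB1 on axon terminals, where the receptor lowers transmitter release. The ligands are 2-arachidonoylglycerol (2-AG), made by the diacylglycerol lipases and broken down mostly by monoacylglycerol lipase, and anandamide, broken down by fatty acid amide hydrolase. In the BLA, CB1 is dense on terminals of inhibitory neurons that contain cholecystokinin, and the system is known for its part in the extinction of fear memories.

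Libraries were made with QuantSeq, which samples transcripts from their 3′ ends, so a gene's count does not grow with its length. Counts can still miss a gene or be uncertain where genes overlap, so the order of levels between genes describes reads only. Among striatal markers, for example, Drd2 had a median of 0 reads where Adora2a had 557. Levels are given as CPM, a gene's count scaled to a common library total. Total reads per mouse ranged from 5286708 to 8685308. Mouse Cyfip1 ran from 23.4 to 39.6 CPM in WT and from 25.2 to 37.7 CPM in CYFIP1 OE mice, and since the table counts mouse genes, it gives no check of the human transgene. A male CYFIP1 OE mouse of line 3 stood apart, with a standardized connectivity (a Z-score of how well its profile correlates with the others) of -4.74 against -1.18 for the next mouse. The paper states that samples with such a Z-score under -2 were removed. This mouse was kept in the main fits here, and fits without it were run as an alternative.

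The punches were labelled BLA, and they also held many reads of markers of striatal projection neurons. Sums of unlike lists compare reads and do not give shares of tissue. The summed level of the striatal projection neuron list (Drd1, Adora2a, Ppp1r1b, Rgs9 and Penk among the 6 that passed the filter, which Drd2 did not) exceeded that of the BLA principal neuron list in 27 of 31 mice. The striatal sum ran from 234 to 5577 CPM, a range of 23.8-fold, and the BLA sum (Slc17a7, Neurod6, Rspo2, Tbr1, Camk2a and Neurod2) from 520 to 3717 CPM. Rspo2 was at 0 in 1 mouse, and Slc17a7, the glutamate transporter of cortical-type neurons, ranged from 26 to 6187 reads. By median, Camk2a had the most reads of the BLA list, 5208, with at least 2954 in every mouse. The medians of the other BLA markers ran from 43 to 1549 reads, so the BLA sum is weighted toward Camk2a. The striatal and BLA sums are given beside the results they move with.

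Mgll, monoacylglycerol lipase, had the most reads of the 9 genes, with 150 ± 39.3 CPM (SD, n = 31), and it was above the next gene, Abhd12, in 30 of 31 mice. Abhd12 (101 ± 13.3 CPM) and Cnr1 (94.0 ± 47.7 CPM) did not keep a fixed order, since Abhd12 was the higher in 19 mice. Cnrip1 followed with 56.6 ± 20.6 CPM, Daglb with 29.7 ± 6.14, Faah with 26.4 ± 13.6, Dagla with 19.7 ± 6.99, Abhd6 with 16.8 ± 3.44 and Napepld with 5.87 ± 2.53. Cnr1 was above Cnrip1 in 22 of 31 mice, Daglb above Faah in 21, Faah above Dagla in 18 and Dagla above Abhd6 in 22, so these neighbors in the order overlapped. Cnrip1 was above Daglb in 29 mice and Abhd6 above Napepld in all 31. Cnr1 stood at the 92.4th percentile of all tested genes by level and Napepld at the 40.2nd.

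By the coefficient of variation, Faah and Cnr1 varied the most between mice and Abhd12 the least. The coefficient of variation over mice was 51.5% for Faah, 50.8% for Cnr1, 43.0% for Napepld, 36.3% for Cnrip1 and 35.4% for Dagla. It was 26.2% for Mgll, 20.7% for Daglb, 20.4% for Abhd6 and 13.2% for Abhd12. Counting error gave 3.05% (Mgll) to 15.1% (Napepld). The highest mouse had 10.1 times the Napepld of the lowest, 8.10 times the Faah and 7.19 times the Cnr1, against 1.55 times for Abhd12.

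**Figure D1:**
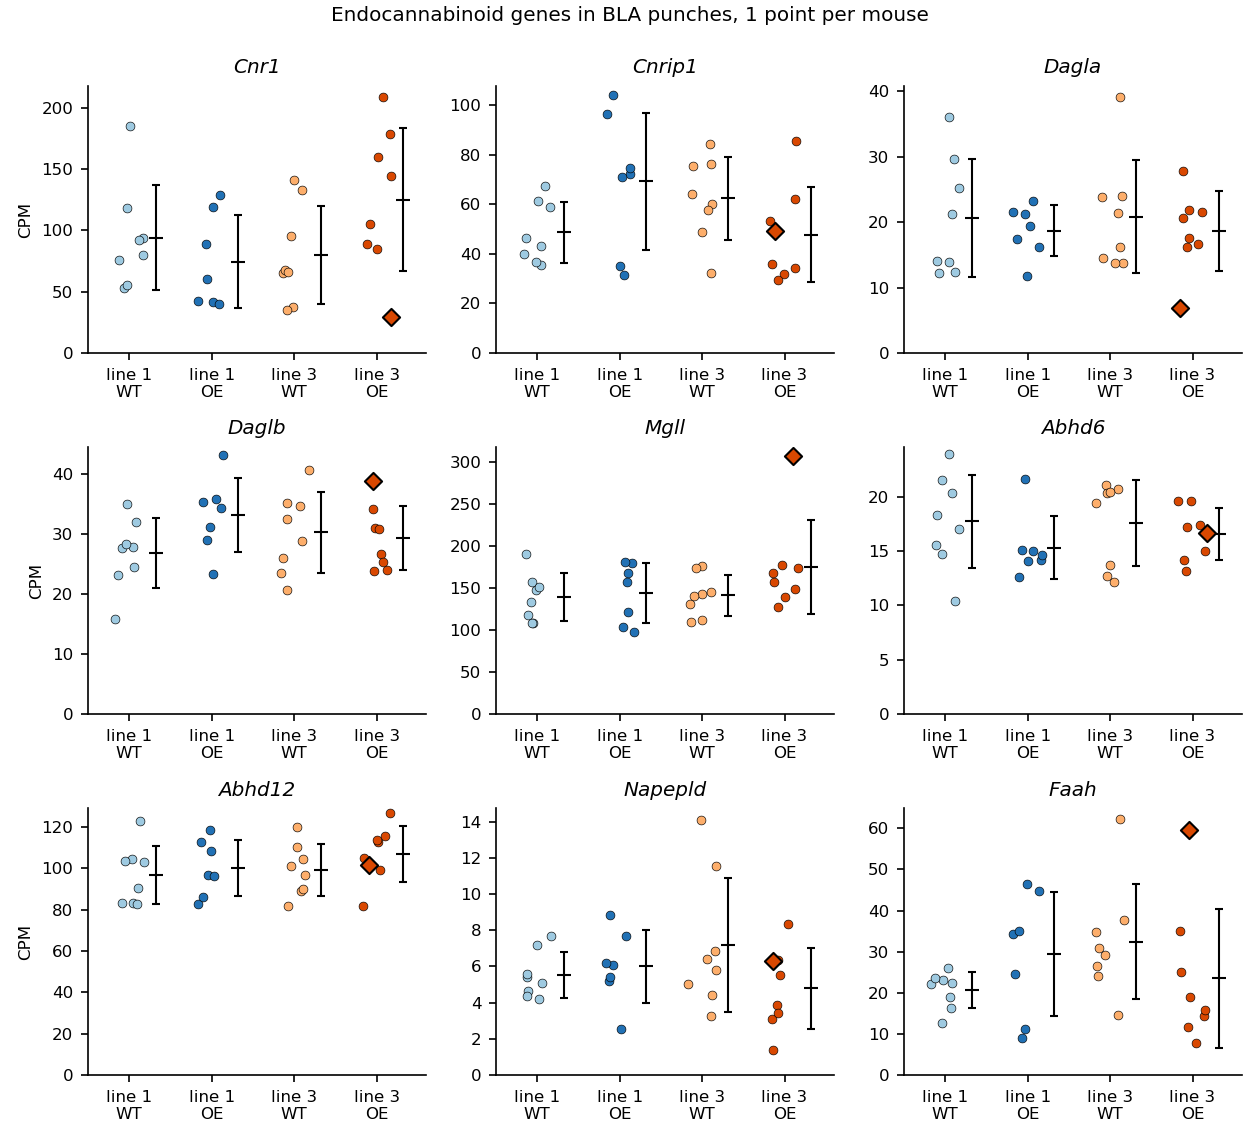
Level of each gene (y axis, CPM from 0) in each of 31 mice, by line and genotype (x axis, OE is CYFIP1 OE), with the group mean and SD to the right of the points. The diamond is the mouse with a connectivity Z-score of -4.74. Groups overlap for every gene, and Cnr1 and Faah spread the most, from 29.0 to 209 and from 7.67 to 62.2 CPM.

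Cnr1 (ENSMUSG00000044288) lies on chromosome 4 of GRCm38, 33924593 to 33948831 on the plus strand, and Faah (ENSMUSG00000034171) on the same chromosome, 115967145 to 116017926 on the minus strand. Cnrip1 (ENSMUSG00000044629), which encodes a protein that binds the tail of CB1, lies on chromosome 11, 17051586 to 17079371 on the plus strand. Their promoters are printed because these 3 genes carried the differences between lines described below, with Cnr1 on one side and Cnrip1 and Faah on the other. Each run holds 250 bases before and 50 after a RefSeq start (RefSeq, build GRCm38.p6), at chr4:33924394-33924693 (plus strand), chr11:17051609-17051908 (plus strand) and chr4:116017875-116018174 (minus strand). For Cnr1, which has 3 such windows, the one nearest the annotated gene start is shown. The RefSeq start lay 51 bases from the annotated gene start for Cnr1, 2 for Faah and 273 for Cnrip1. The whole Cnrip1 window therefore lies inside the annotated gene and is not upstream of its annotated start. Capitals mark matches on either strand to GGGCGG for the GC box, CCAAT for the box of that name, TATAAA for the TATA box, TGACGTCA for the cyclic AMP response element or GCGTGGGCG for the early growth response site.
Cnr1 promoter: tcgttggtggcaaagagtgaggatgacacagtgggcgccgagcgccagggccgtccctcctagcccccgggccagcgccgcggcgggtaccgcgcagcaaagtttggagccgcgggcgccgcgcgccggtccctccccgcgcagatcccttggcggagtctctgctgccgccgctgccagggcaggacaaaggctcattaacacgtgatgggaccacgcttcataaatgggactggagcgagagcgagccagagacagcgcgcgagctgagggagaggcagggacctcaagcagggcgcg
Cnrip1 promoter: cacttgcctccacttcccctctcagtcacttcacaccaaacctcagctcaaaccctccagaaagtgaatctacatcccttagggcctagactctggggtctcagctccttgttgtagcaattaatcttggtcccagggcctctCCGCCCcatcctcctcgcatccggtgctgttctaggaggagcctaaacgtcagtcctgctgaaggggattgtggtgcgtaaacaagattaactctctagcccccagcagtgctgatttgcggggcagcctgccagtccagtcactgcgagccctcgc
Faah promoter: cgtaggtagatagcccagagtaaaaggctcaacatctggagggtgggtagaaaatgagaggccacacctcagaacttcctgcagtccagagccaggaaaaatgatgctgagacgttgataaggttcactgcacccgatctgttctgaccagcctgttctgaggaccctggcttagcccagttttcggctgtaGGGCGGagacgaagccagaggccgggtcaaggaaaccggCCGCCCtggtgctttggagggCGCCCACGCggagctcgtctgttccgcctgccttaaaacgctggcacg

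The Cnr1 window held 33 CpG dinucleotides, at the 91.4th percentile of the 32851 windows of this length, and none of the 5 motifs. The Cnrip1 window held 8 CpG and 1 GC box, and the Faah window 16 CpG, 2 GC boxes and 1 early growth response site. A GC box occurred in 35.7% of all windows, CCAAT in 37.4%, TATAAA in 13.6%, the cyclic AMP response element in 1.79% and the early growth response site in 0.612%. Windows were found for 7 of the 9 genes, and not for Dagla and Abhd12. No motif overlapped another in these 3 windows, and a match is a description of the letters only.

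With both lines together, none of the 9 genes passed a test for a difference between genotypes. The log2 fold changes (CYFIP1 OE over WT) ran from -0.25 for Napepld to 0.18 for Mgll, with unadjusted p from 0.134 to 0.954 in edgeR's quasi-likelihood test with sex and line as covariates. None of the 9 had an unadjusted p under 0.05, where 4.3% of the 17428 genes tested did, and DESeq2 gave 0 as well. No gene of the genome passed an adjusted p of 0.05 in edgeR or in DESeq2. The median log2 fold change of the 9 was 0.05, against -0.01 for all tested genes. Both genotypes overlapped for every gene.

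The intervals show what sizes these mice leave possible. For Abhd12, a hydrolase of 2-AG and of lysophosphatidylserine, the log2 fold change was 0.07 with a 95% interval of -0.08 to 0.23. For Abhd6, which hydrolyzes 2-AG in the postsynaptic neuron, it was -0.15 (-0.38 to 0.08), and for Mgll, which does so in axon terminals, 0.18 (-0.06 to 0.42). The intervals were wider for the receptor and the anandamide enzymes, with 0.14 (-0.36 to 0.65) for Cnr1, -0.01 (-0.52 to 0.49) for Faah and -0.25 (-0.70 to 0.20) for Napepld, the phospholipase D that forms anandamide. Cnrip1 had 0.05 (-0.32 to 0.42), Dagla -0.16 (-0.50 to 0.19) and Daglb 0.12 (-0.10 to 0.35).

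Cnr1 pointed opposite ways in the 2 lines. In line 1, the lowest, median and highest Cnr1 levels were 52.9, 85.8 and 185 CPM in WT mice and 40.3, 60.3 and 128 CPM in CYFIP1 OE mice. In line 3 they were 35.2, 66.8 and 141 CPM in WT and 29.0, 125 and 209 CPM in CYFIP1 OE mice. In line 1, 5 of 7 CYFIP1 OE mice were below the WT mean, and in line 3, 7 of 8 were above it, 4 of them above every WT mouse of that line. The exception in line 3 was the mouse that stood apart, which had the lowest Cnr1 of all 31.

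The fitted Cnr1 log2 fold change was -0.40 (SE 0.34, unadjusted p = 0.241 in edgeR) in line 1 and 0.64 (SE 0.32, unadjusted p = 0.056) in line 3. The difference between the lines was 1.04 (SE 0.46, unadjusted p = 0.032, adjusted p = 0.575 from edgeR). Without the mouse that stood apart, the line 3 value was 0.79 (unadjusted p = 0.0131) and the difference 1.17 (unadjusted p = 0.00967). The line 1 value was -0.08 with age as a covariate and -0.09 without the 77-day mice. The line 3 value was 0.18 with the marker list sums described below as covariates and 0.02 with 5 surrogate variables.

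Cnrip1 ran the other way. In line 1, its lowest, median and highest levels were 35.7, 44.9 and 67.2 CPM in WT mice and 31.5, 72.2 and 104 CPM in CYFIP1 OE mice. In line 3 they were 32.1, 62.0 and 84.5 CPM in WT and 29.3, 42.5 and 85.6 CPM in CYFIP1 OE mice. The CYFIP1 OE mice of line 1 split, with 5 of 7 above every WT mouse of that line and 2 below every one, and in line 3, 7 of 8 were below the WT mean. Their log2 fold changes were 0.51 (SE 0.24, unadjusted p = 0.041 in edgeR) in line 1 and -0.39 (SE 0.23, unadjusted p = 0.104) in line 3, and the lines differed by -0.90 (SE 0.34, unadjusted p = 0.011, adjusted p = 0.544 from edgeR). Cnrip1 overlaps Plek on the opposite strand, a gene with a median of 42.1 reads per mouse.

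Faah, which ends anandamide signaling, split the same way as Cnrip1. In line 1, its lowest, median and highest levels were 12.6, 22.3 and 26.0 CPM in WT mice and 8.98, 34.3 and 46.5 CPM in CYFIP1 OE mice. In line 3 they were 14.5, 30.0 and 62.2 CPM in WT and 7.67, 17.3 and 59.7 CPM in CYFIP1 OE mice. In line 1, 4 of 7 CYFIP1 OE mice were above every WT mouse and 2 below every one, and in line 3, 3 of 8 were below every WT mouse. The log2 fold changes were 0.50 (SE 0.34, unadjusted p = 0.146 in edgeR) and -0.50 (SE 0.33, unadjusted p = 0.134), and the lines differed by -1.00 (SE 0.47, unadjusted p = 0.040, adjusted p = 0.589 from edgeR). The mouse that stood apart was the highest CYFIP1 OE mouse, at 59.7 CPM, and without it the line 3 value was -0.81 (unadjusted p = 0.0127) and the difference -1.31 (unadjusted p = 0.00457).

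Cnr1, Cnrip1 and Faah were thus 3 of 9 genes with an unadjusted p under 0.05 for the difference between lines, where 8.1% of all tested genes had one. None passed after adjustment over all genes, in edgeR or in DESeq2, which also gave 3 of 9 unadjusted. Within line 1 alone, 1 of 9 had an unadjusted p under 0.05 (3.96% of all genes). Within line 3, 0 of 9 had one (7.93% of all genes). DESeq2 gave 1 and 0 for the same lines. The shares of all genes are those of edgeR, and the shares in DESeq2 are not given. Without the mouse that stood apart, line 3 had 3 of 9, Cnr1, Faah and Napepld, where 9.01% of the 17719 genes tested without it had one. With age as a covariate the difference was 0.73 for Cnr1 (unadjusted p = 0.184), -0.94 for Cnrip1 (unadjusted p = 0.021) and -0.84 for Faah (unadjusted p = 0.124). The line 1 value of Cnrip1 was 0.55 (unadjusted p = 0.082) in that fit and 0.22 (unadjusted p = 0.316) with the marker sums described next.

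The marker lists of the punches differed between lines in the same comparison. For all 6 tested striatal markers the genotype difference was higher in line 3 than in line 1 with an unadjusted p under 0.05 in edgeR, and the median log2 difference was 1.48. The median for the 6 BLA principal neuron markers was -1.23, with 5 of 6 below 0 and none with an unadjusted p under 0.05 in edgeR. The striatal sum ran from 2794 to 3903 CPM in line 1 WT mice, from 662 to 4408 CPM in line 1 CYFIP1 OE mice, from 234 to 4999 CPM in line 3 WT mice and from 271 to 5577 CPM in line 3 CYFIP1 OE mice. With the striatal, BLA and oligodendrocyte sums as covariates, a fit chosen after seeing the data, the difference between lines was 0.43 for Cnr1 (unadjusted p = 0.277), -0.53 for Cnrip1 (unadjusted p = 0.080) and -0.35 for Faah (unadjusted p = 0.290). With 5 surrogate variables it was 0.38, 0.07 and -0.04, which turns the direction of Cnrip1. In bulk tissue, fewer cells of a type and less RNA per cell cannot be told apart.

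**Figure D2:**
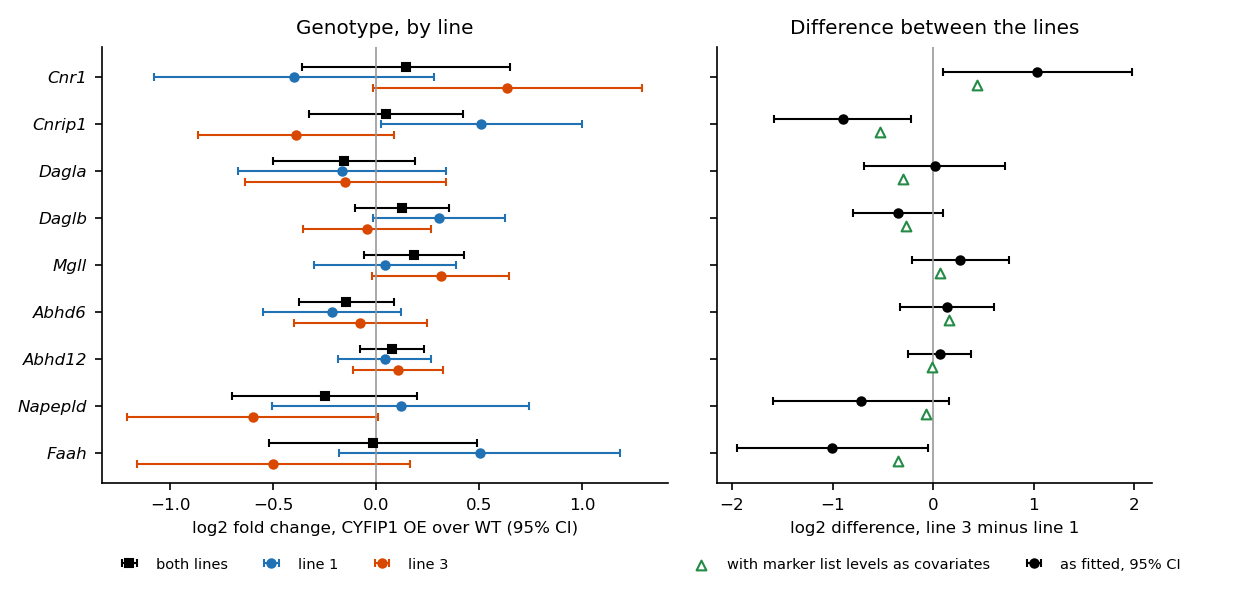
Left, log2 fold change of CYFIP1 OE over WT with 95% intervals for both lines (black squares), line 1 (blue) and line 3 (orange). Right, difference between the lines as fitted (black, 95% interval) and with the marker list sums as covariates (green triangles, no interval drawn). The intervals of Cnr1, Cnrip1 and Faah leave 0 in the right panel, and their triangles lie at 0.43, -0.53 and -0.35.

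The other 6 genes had an unadjusted p of at least 0.053 within each line. Napepld ran from 3.27 to 14.1 CPM in line 3 WT mice (median 6.13) and from 1.40 to 8.33 CPM in line 3 CYFIP1 OE mice (median 4.70), and 7 of the 8 CYFIP1 OE mice were below the WT mean. Its log2 fold change in line 3 was -0.60 (SE 0.30, unadjusted p = 0.053 in edgeR), against 0.12 (SE 0.31, unadjusted p = 0.706) in line 1. The low level limits this gene, which had 9 reads in 1 mouse and a median of 41.

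Mgll ran from 109 to 176 CPM in line 3 WT mice (median 141) and from 127 to 307 CPM in line 3 CYFIP1 OE mice (median 162). The value of 307 CPM came from the mouse that stood apart, and the next highest CYFIP1 OE mouse of that line had 177. The log2 fold change in line 3 was 0.31 (SE 0.16, unadjusted p = 0.065 in edgeR) with that mouse and 0.14 (unadjusted p = 0.310) without it, and in line 1 it was 0.04 (unadjusted p = 0.807). Over both lines Mgll was 0.09 without that mouse (unadjusted p = 0.379). With the marker sums as covariates the both-line value was 0.26 (unadjusted p = 0.0147, adjusted p = 0.582 from edgeR).

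Of the diacylglycerol lipases, Dagla, the main source of 2-AG in the adult brain, had -0.17 (SE 0.25) in line 1 and -0.15 (SE 0.24) in line 3, with unadjusted p of 0.510 and 0.533 in edgeR. The line 3 value was -0.03 without the mouse that stood apart and the line 1 value 0.07 with age as a covariate. Daglb had 0.30 (SE 0.16, unadjusted p = 0.063 in edgeR) in line 1 and -0.05 (unadjusted p = 0.770) in line 3. The end of Daglb overlaps Rac1 on the opposite strand, a gene with a median of 1843 reads per mouse, and since the strand setting of the counting is not given in the sources used here, its reads are uncertain. Daglb had more reads than Dagla in 27 of 31 mice. Abhd6 had -0.22 and -0.08 and Abhd12 0.04 and 0.11 in lines 1 and 3, with unadjusted p of at least 0.197.

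Line and sex were checked as factors of their own. Between lines over both genotypes, 0 of 9 genes had an unadjusted p under 0.05 in edgeR or in DESeq2 (3.31% of all genes did in edgeR), with values from -0.08 for Cnrip1 to 0.19 for Cnr1 (line 3 over line 1). Among WT mice alone, Faah was the 1 gene of 9 under 0.05 (4.41% of all genes), with 20.7 ± 4.40 CPM in line 1 and 32.5 ± 13.9 CPM in line 3, a log2 difference of 0.67 (SE 0.33, unadjusted p = 0.046, adjusted p = 0.9999 from edgeR). That value was -0.01 with the marker sums as covariates. Between sexes 0 of 9 had an unadjusted p under 0.05 in edgeR or in DESeq2 (4.62% of all genes in edgeR), with values from -0.28 for Faah to 0.32 for Cnr1 (female over male).

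Levels of 6 of the 9 genes moved with markers of the cells in the punch. Each gene's log2 CPM was compared with the log2 summed CPM of 11 marker lists over 31 mice, and 16 of 99 relations had an adjusted p under 0.05 by a two-sided permutation test with Benjamini-Hochberg adjustment. Of these, 11 were positive, and 15 of 99 passed by Spearman's rho. None belonged to Daglb, Abhd6 or Abhd12. How many of all tested genes have such relations was not counted, so these counts cannot be called particular to the 9 genes. The points share library, dissection and total, and the lists themselves vary together.

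Faah followed the striatal list downward, with r = -0.79 and rho = -0.86 (permutation p = 1e-05, the smallest that 100000 resamples can give, adjusted p = 0.00033). The relation held within line 1 (r = -0.69) and line 3 (r = -0.85) and without the 2 mice farthest from the median (r = -0.74). Faah went up with the BLA principal neuron list (r = 0.66, rho = 0.64, adjusted permutation p = 0.00099) and with the cholecystokinin interneuron list (r = 0.66, rho = 0.64, adjusted permutation p = 0.00113). The 2 mice with the most Faah, at 62.2 and 59.7 CPM, were those with the lowest striatal sums, 234 and 271 CPM.

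Cnr1 followed the striatal list upward, with r = 0.66 and rho = 0.70 (permutation p = 3e-05, adjusted p = 0.000742), at 0.53 in line 1, 0.75 in line 3 and 0.69 without the 2 farthest mice. It also went with the immediate early genes (Fos, Fosb, Arc, Egr1, Junb and Nr4a1), which neurons switch on with activity, with r = 0.72 and rho = 0.74 (adjusted permutation p = 0.00033), at 0.64 and 0.76 within lines 1 and 3. That sum mostly reflects Egr1, which had a median of 1816 reads, where the medians of the others ran from 44 to 218. The r of Cnr1 with the astrocyte list was 0.49 (rho = 0.45, adjusted permutation p = 0.0354). Cnr1 did not pass for the cholecystokinin interneuron list (r = -0.02, adjusted permutation p = 0.996) or for the BLA principal neuron list (r = -0.19, adjusted permutation p = 0.559).

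Dagla went with the immediate early genes (r = 0.66, rho = 0.52, adjusted permutation p = 0.00099), at 0.39 in line 1, 0.82 in line 3, 0.41 without the 2 farthest mice and 0.49 without the mouse that stood apart. It also went with the astrocyte list (r = 0.56, rho = 0.50, adjusted permutation p = 0.0107). Its relation to the striatal list had r = 0.44 and did not pass after adjustment.

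The highest r of the 99 was that of Cnrip1 with the cholecystokinin interneuron list (r = 0.86, rho = 0.86, permutation p = 1e-05, adjusted p = 0.00033), at 0.85 in line 1, 0.91 in line 3 and 0.84 without the 2 farthest mice. In that list Cck is also made by principal neurons, and Gad1 and Gad2 by inhibitory neurons in general, so it does not single out 1 cell type. Cnrip1 was positive with the BLA list (r = 0.60, rho = 0.72, adjusted permutation p = 0.00337). It was negative with the oligodendrocyte list (r = -0.61), the microglia list (r = -0.59) and the striatal list (r = -0.53), with adjusted permutation p of 0.00337, 0.00337 and 0.0121.

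Napepld was negative with the striatal list (r = -0.52, rho = -0.57, adjusted permutation p = 0.0236) and positive with the choroid plexus list (Ttr, Folr1 and Kl, r = 0.56, rho = 0.58, adjusted permutation p = 0.00675). Mgll went with the BLA list (r = 0.49, rho = 0.32, adjusted permutation p = 0.0387), but r was 0.28 without the 2 farthest mice and 0.23 without the mouse that stood apart, so that this relation rests on those mice.

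**Figure D3:**
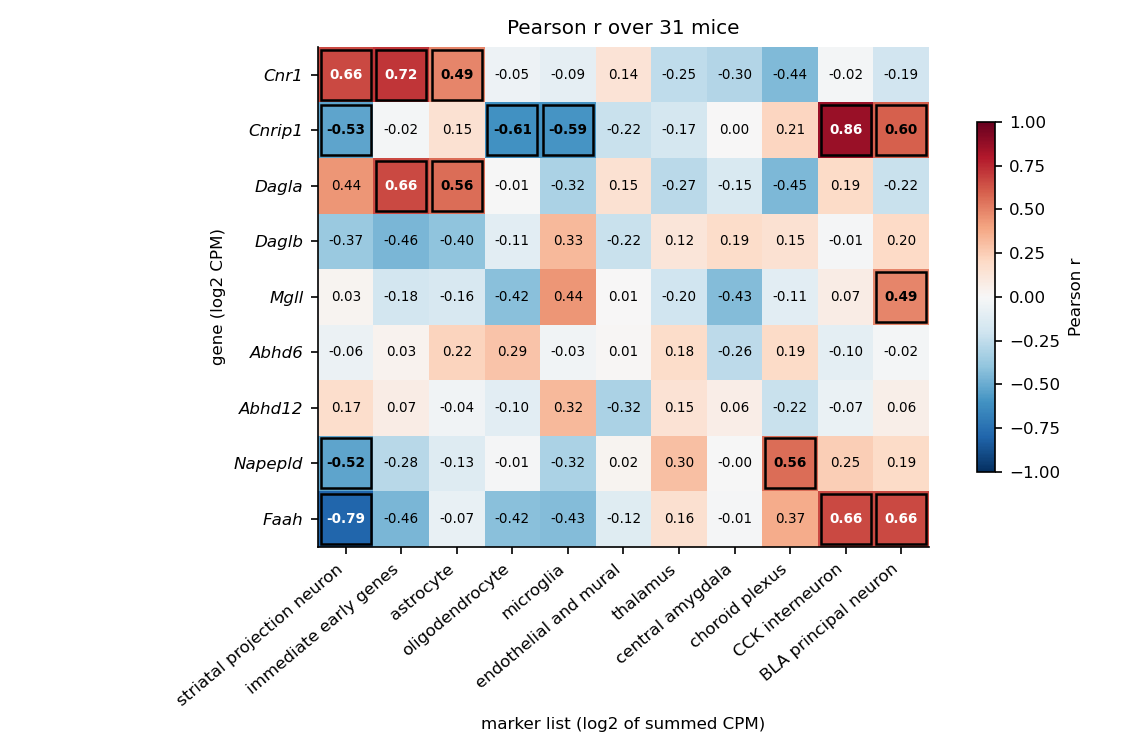
Pearson r over 31 mice between the log2 CPM of each gene (rows) and the log2 summed CPM of each marker list (columns), from blue (-1) to red (1). Boxes mark an adjusted permutation p under 0.05. Faah and Cnr1 have opposite signs in the striatal column, -0.79 and 0.66, and the rows of Daglb, Abhd6 and Abhd12 hold no box.

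Among the genes themselves, 3 of 36 pairs had an adjusted permutation p under 0.05. The share among pairs of other genes was not counted either. Cnr1 and Dagla, receptor and ligand enzyme of the 2-AG arm, went together (r = 0.74, rho = 0.73, permutation p = 1e-05, adjusted p = 0.00036), at 0.73 in line 1 and 0.77 in line 3, and 0.69 without the 2 farthest mice. Both also rose with the immediate early list (r = 0.72 and 0.66) and the astrocyte list (r = 0.49 and 0.56). Whether the pair goes together apart from those lists was not tested. Cnrip1 and Faah, whose promoters are printed above, went together (r = 0.69, rho = 0.70, adjusted permutation p = 0.0009), at 0.65 and 0.75 in the 2 lines. Cnr1 and Faah went in opposite directions (r = -0.57, rho = -0.58, adjusted permutation p = 0.012), at -0.34 in line 1 and -0.74 in line 3. Cnr1 and Cnrip1, although their proteins bind each other, gave r = -0.25 (adjusted permutation p = 0.443).

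**Figure D4:**
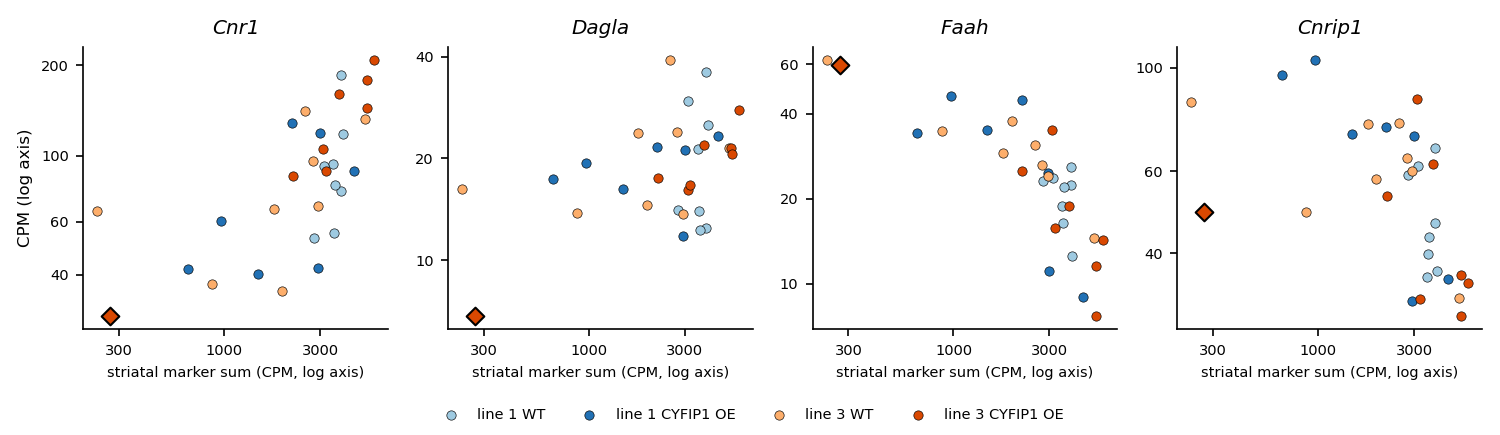
Level of Cnr1, Dagla, Faah and Cnrip1 (y axis, CPM, log axis) against the summed level of the striatal projection neuron markers (x axis, CPM, log axis) in 31 mice, colored by line and genotype. The diamond is the mouse with a connectivity Z-score of -4.74. Faah falls and Cnr1 rises along the axis in both lines (r = -0.79 and 0.66), and all 8 line 1 WT mice sit between 2794 and 3903 CPM.

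The 5 genes whose pattern over the 31 mice was most like that of Cnr1, among 8449 genes with a mean of at least 10 CPM, were Tle4 (r = 0.91), Chn1 (r = 0.88), Acvr1c (r = 0.87), Actn1 (r = 0.86) and Skil (r = 0.86). For other genes of the 9 the nearest were Dlgap1 for Cnrip1 (r = 0.94), Lrrc4c for Dagla (r = 0.81), Dbnl for Daglb (r = 0.73) and Gp1bb for Mgll (r = 0.88). Scamp2 was nearest to Abhd6 (r = 0.67), Sulf2 to Napepld (r = 0.71) and Nr2f1 to Faah (r = 0.87). These were picked as the highest values, so they carry no test. With sex, line and genotype removed, 4 of the 5 genes nearest to Cnr1 were the same. Sulf2 followed Napepld in line 3 (r = 0.87) and not in line 1 (r = 0.06).

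The rest of the pathway was read from a list of 27 genes, of which 24 passed the filter. The other cannabinoid-binding receptors were scarcely seen, with medians of 1 read for Cnr2 (CB2, the receptor of immune cells) and 0 for Gpr55 and Trpv1, and at most 13, 3 and 1 reads in any mouse. Over both lines, 0 of 24 genes had an unadjusted p under 0.05 in edgeR and 0 of 24 in DESeq2, with values from -0.47 for Ppara, a nuclear receptor for fatty acid amides, to 0.37 for Lipe, hormone-sensitive lipase. In line 1, 3 of 24 had one (3.96% of all genes), Gnaq (0.32), Gnai1 (0.35) and Grm5 (-0.25), and the ends were Ptgs2 (0.94) and Ppara (-0.51). In line 3, 3 of 24 had one (7.93% of all genes), among them Lipe (0.88) and Gnai1 (-0.43), and Ptgs2 was lowest at -0.81.

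For the difference between lines, 6 of 24 genes of the list had an unadjusted p under 0.05 (8.1% of all genes), and none passed after adjustment in edgeR or in DESeq2, which also gave 6 unadjusted. Gnai1, an inhibitory G protein subunit of the kind CB1 couples to, differed by -0.78 (unadjusted p = 0.00166, adjusted p = 0.527 from edgeR). It had 38.6 CPM in WT and 49.3 in CYFIP1 OE mice of line 1, and 51.3 and 38.2 in line 3 (means). In the chain from glutamate receptors to 2-AG synthesis, the genotype difference was higher in line 3 than in line 1 for Grm5 (0.40) and Plcb1 (0.67) and lower for Gnaq (-0.56). Ptgs2, the cyclooxygenase that oxidizes 2-AG and anandamide, had -1.75 and Lipe 1.07, and Ptgs2 had a median of only 13 reads. Gnai1 was also the 1 gene of 24 with an unadjusted p under 0.05 between WT mice of the lines (0.41, unadjusted p = 0.0137 in edgeR, where DESeq2 gave 3 genes), and Lipe the 1 of 24 between sexes (0.67, female over male, unadjusted p = 0.010). In the same comparison between lines the striatal markers had a median of 1.48. The BLA markers had a median of -1.23, with none under an unadjusted p of 0.05 in edgeR. The part of either in these values was not tested for the list.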

How the data were processed

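RNA from 31 mouse BLA punches was sequenced as QuantSeq 3′ libraries. The authors deposited 1 table of estimated counts per gene and mouse, and the submitters' processing notes name STAR, Salmon, Picard and MultiQC with the GRCm38 build. How reads that fit several genes were shared, and the strand setting, are not given in the sources used here. The estimates were rounded and matched to GENCODE M21 symbols, which named 48349 of 48709 identifiers. The 17428 genes that reached 10 reads in 7 or more mice were tested with edgeR 4.0.16 (TMM scaling, quasi-likelihood test) in R 4.3.3, in 1 fit per design over all 31 mice, and p-values were adjusted by Benjamini-Hochberg over all genes tested. Genotype over both lines was fitted with sex and line as covariates, and the values within lines and the difference between lines came from a fit of line by genotype with sex. CPM values are TMM-scaled, with a prior count of 2 on the log2 scale. The study's own model was DESeq2 with sequencing components that were not used here. Its removal of samples with a connectivity Z-score under -2 was not applied to the main fits.

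The members and gene lists were chosen with earlier results of these data known. All 9 members are named. The 5 genes with the highest r are named for Cnr1 and 1 for each other member. Genes of the pathway list are named where the unadjusted p was under 0.05 or the value was lowest or highest in a comparison. A few genes that these rules or lists name are not reported here. Relations over mice were tested with 100000 permutations, two-sided. Alternatives were DESeq2 1.42.0, RLE size factors, no filter on low counts, age as a covariate, 5 surrogate variables (sva 3.50.0), name group as a block among the name groups with both genotypes or both sexes, and leaving out the 77-day mice, the mouse with low connectivity or each mouse in turn. The marker list covariates were chosen after seeing the data. The tests were tested on simulated data. A replicate is 1 mouse. The 95% intervals of log2 fold changes come from the edgeR fit and give the uncertainty of the mean difference, estimated from the spread between mice.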

Additional observations from a re-analysis of the deposited data

Results flagged for a closer look

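In groups of 7 or 8 mice, the gap between the highest or lowest mouse and its neighbor passed Dixon's criterion in 3 of 36 gene and group combinations, where chance gives about 1 in 20. The highest Dagla level, 39.2 CPM, stood apart in line 3 WT mice. The highest Mgll level, 307 CPM, stood apart in line 3 CYFIP1 OE mice and belonged to the mouse with low connectivity. The highest Abhd6 level, 21.6 CPM, stood apart in line 1 CYFIP1 OE mice.

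The log2 genotype difference itself differed between lines (line 3 minus line 1) with an unadjusted p under 0.05 in edgeR for 3 of the 9 genes (8.1% of all genes tested), by 1.04 for Cnr1, -0.90 for Cnrip1 and -1.00 for Faah. None passed after adjustment over all genes, with adjusted p of 0.575, 0.544 and 0.589 from edgeR. The striatal markers moved in the same comparison with a median of 1.48. The BLA markers had a median of -1.23, with none under an unadjusted p of 0.05 in edgeR.

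The mouse with low connectivity had the lowest Cnr1 (29.0 CPM) and the lowest Dagla (6.81 CPM) of all 31 and the highest Mgll. Its BLA marker sum was 3717 CPM, where the others ran from 520 to 1901 CPM, and its immediate early gene sum was 81.9 CPM, where the others ran from 148 to 476 CPM.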

How the results depend on the processing

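Across all 585 fits of a member no adjusted p was under 0.05, and the smallest was 0.244 in edgeR. Counts are of members with an unadjusted p under 0.05 unless said otherwise, and values are log2 differences. The share of all genes under that threshold is given only for the main edgeR fits and for a within-line fit without the mouse with low connectivity. Counts from any other fit have no such share beside them, so they cannot be compared with the rate among all genes. The cause of a change was not tested. The labels give no replicate numbers to pair mice by, so the name group stood in as the block.

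With marker list sums as covariates the count was 1 over both lines, 0 in line 1, 1 in line 3, 0 for the difference between lines and 0 for line among WT mice. Turned values in that fit were Cnr1 -0.024 and Cnrip1 -0.080 over both lines, Napepld -0.15 in line 1, Daglb 0.041 and Abhd6 0.031 in line 3, Dagla -0.30 and Abhd12 -0.011 for the difference, and Faah -0.0097 and Cnr1 0.12 between WT mice of the lines.

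With 5 surrogate variables the count was 0 in line 1, for the difference and among WT mice, and the genes with an adjusted p under 0.05 numbered 1 over both lines, 2 in line 1, 1 between lines and 1 among WT mice. Turned values were Cnr1 -0.21, Cnrip1 -0.086 and Mgll -0.078 over both lines, and Cnrip1 -0.11, Mgll -0.046, Napepld -0.12 and Faah -0.13 in line 1. They were Daglb 0.070, Mgll -0.13, Abhd6 0.0081 and Abhd12 -0.042 in line 3, Cnrip1 0.072, Dagla -0.086, Mgll -0.088 and Abhd12 -0.092 for the difference, and Faah -0.021 among WT mice.

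With age as a covariate the count was 0 in line 1 and 1 for the difference, and turned values were Cnrip1 -0.033 over both lines, Dagla 0.066, Abhd12 -0.14 and Napepld -0.13 in line 1, Dagla -0.21 for the difference, and Cnr1 -0.16 and Cnrip1 0.032 between lines. Without the 77-day mice the count was likewise 0 and 1, and turned values were Cnrip1 -0.052 over both lines, Dagla 0.053, Abhd12 -0.13 and Napepld -0.049 in line 1, Dagla -0.20 for the difference, and Cnr1 -0.076 and Cnrip1 0.023 between lines. The name group was used as a block in the 18 mice of the 5 name groups that held both genotypes. There the genotype count was 0 and Cnrip1 was -0.15. Most of these mice were of line 3, where Cnrip1 had -0.39 in the main fit, so this value says little about line 1.

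Without the mouse with low connectivity the line 3 count was 3. With no filter on low counts it was 1, and 2 genes had an adjusted p under 0.05 in line 3, for the difference and between lines. DESeq2 gave 1 such gene in line 1, 4 in line 3 and 2 for the difference. With sex, line and genotype removed, 5 of 36 pairs of members passed in place of 3 and 23 of 99 relations to marker lists in place of 16. Leaving out each of the 31 mice in turn, run for both lines together, kept the count at 0 and moved Cnrip1 between -0.03 and 0.10, Faah between -0.14 and 0.13, Mgll between 0.09 and 0.23, Cnr1 between 0.05 and 0.27, Dagla between -0.20 and -0.06 and Napepld between -0.31 and -0.11. Depth limits Napepld most, where counting error alone gave 15.1%.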
